A study of Schizosaccharomyces pombe with 36 samples.

Results

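The genes examined were 10 Schizosaccharomyces pombe genes that encode translation elongation factors or proteins made from mRNAs of the 5'TOP kind in other eukaryotes. They were taken by systematic identifier, a rule that uses no measured value, and all 10 were found among the 7268 S. pombe genes of the deposited counts. They comprised tef101 (SPCC794.09c), tef102 (SPAC23A1.10) and tef103 (SPBC839.15c), which encode elongation factor eEF1A, tef5 (SPCC1450.04), which encodes an exchange subunit of eEF1B, eft201 (SPAC513.01c) and eft202 (SPCP31B10.07), which encode eEF2, tef3 (SPCC417.08), which encodes the fungal factor eEF3, the eIF5A gene tif51 (SPAC26H5.10c), cpc2 (SPAC6B12.15), the homologue of RACK1, and tma19 (SPAC1F12.02c), the homologue of TCTP. RNA came from cells in which slr1, a gene for a LARP1 homologue, had been knocked out (KO, 1 strain) and from wild-type cells (WT, 1 strain). For each genotype 3 cultures were started from single colonies, incubated at 32 degrees and given 5 mM of the uridine analogue 4-thiouracil, which KO and WT cultures alike received. From each culture 5 libraries were made of RNA captured through the incorporated label, named here labelled 5, 20, 50, 105 and 125 after time points whose unit the labels do not state, and 1 from RNA without selection, named steady state. The labels name no age, treatment or allele beyond these.

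Elongation factors carry the ribosome through its cycle: eEF1A brings aminoacyl-tRNA to the ribosome, eEF1B reloads eEF1A with GTP, eEF2 moves the ribosome along the mRNA, and eEF3 is an ATPase that fungi need in addition. In animals the mRNAs of eEF1A, eEF1B, eEF2, RACK1, TCTP and ribosomal proteins begin with a run of pyrimidines, the 5'TOP motif. LARP1 binds that motif and governs the translation and stability of the mRNAs that carry it. The series asked whether the fission yeast homologue Slr1p acts on mRNAs that resemble them. RNA that carries the label a short time after its addition is mostly newly made. RNA captured later also includes molecules made earlier in the labelling. A transcript's share across the time points can therefore reflect its build-up relative to all other transcripts. Capture may also differ between transcripts, for example with length (703 bases in tma19 to 3307 in tef3), which was not tested.

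The 36 libraries held 921427 to 6517092 counts on S. pombe genes. Reads with no unique place made up 16.0 to 48.0% of all lines in steady-state and 5.82 to 10.4% in labelled libraries. As a check of the knockout, the mRNA of slr1 (SPAC1527.03) did not overlap between genotypes in any of the 6 fractions: at steady state it averaged 18.5 ± 6.48 CPM in KO and 128 ± 16.2 CPM in WT cultures (SD, n = 3 each), and in labelled RNA the KO mean was 4.17 to 7.46% of the WT mean. By fly counts per human count at steady state the cultures formed a set A (KO 2, WT 1 and WT 2, with ratios of 0.990 to 1.07) and a set B (KO 1, KO 3 and WT 3, with 1.85 to 2.15). Each set holds both genotypes, but most WT cultures are in set A and most KO cultures in set B. Set and genotype are therefore partly confounded. The part of the human and fly RNA in the experiment is not stated by the sources used here. Levels are S. pombe counts scaled to library size with TMM factors (CPM). They are shares of the counts on S. pombe genes, non-coding ones included, and not amounts per cell. Fewer cells with a transcript cannot be told apart from less of it per cell.

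The copies of eEF1A and of eEF2 are so alike that a counter that drops reads with several places sees only part of them. The coding sequences of tef102 and tef103 share 98.92% of their bases and encode the same 460 residues, tef101 differs from both by 1 residue, and eft201 and eft202 share 99.57% of their bases and encode identical proteins of 842 residues. Of all stretches of 100 bases in the annotated transcript, 55.0% were unique in the genome for tef101, 40.03% for tef102, 47.4% for tef103, 25.3% for eft201 and 25.7% for eft202. For tef5, tef3, tif51, cpc2 and tma19 all such stretches were unique. The counts of the 5 copies therefore come from the stretches in which they differ, and differences of level between copies are uncertain, whereas a change of 1 copy between libraries uses the same stretches on both sides. Apart from tef3 and tma19, each member overlaps at least 1 annotated gene on either strand. Each of the 10 genes passed the filter on low counts in every fit.

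None of the 10 mRNAs differed between KO and WT cultures at steady state or at any labelled time point by edgeR's quasi-likelihood test. At steady state tef101 reached 937, 1838 and 809 CPM in KO cultures 1 to 3, against 904, 990 and 1283 CPM in WT cultures 1 to 3. Levels of tef5 were 2171, 2545 and 1526 CPM in KO, against 1473, 4068 and 1890 CPM in WT cultures. In both cases 1 culture stood above the other 5, KO 2 for tef101 and WT 2 for tef5, and the genotypes overlapped. For cpc2, whose product sits on the small ribosomal subunit, the values were 2135, 3594 and 1943 CPM in KO and 1630, 3120 and 2381 CPM in WT cultures. The tma19 mRNA had 6819, 3424 and 5662 CPM in KO, against 3712, 6383 and 5806 CPM in WT cultures, with KO 2 the lowest of all. The log2 fold changes of KO over WT at steady state ran from −0.22 (tef5, SE 0.44) to 0.31 (tef102, SE 0.41), with 6 members above and 4 below 0.

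Among all genes tested 1 of 5371 (0.0186%) passed at steady state and 1 of 5812 (0.0172%) at each labelled time point, and that gene was slr1. Without a block no member had an unadjusted p under 0.05 by edgeR in any of the 6 comparisons, and DESeq2 called no member either. The 95% intervals of all 10 members without a block held 0 in each comparison. Their widths show what these data could resolve: at steady state the half-width was 0.74 to 1.02 on the log2 scale. At labelled 5 it was 0.50 to 0.88. The KO and WT ranges of each member overlapped in all 6 fractions. In labelled RNA the members' median log2 fold change was 0.02 at time point 5, −0.02 at 20, 0.23 at 50, 0.29 at 105 and 0.18 at 125, beside medians over all genes between −0.01 and 0.01. Without KO 2 these medians of the members were −0.31 at 5, −0.59 at 20, −0.09 at 50, 0.02 at 105 and −0.04 at 125. At 105 all 10 members were above 0, led by tef101 (0.49, SE 0.34, unadjusted p = 0.171) and tma19 (0.43, SE 0.31), and the smallest adjusted p of any member there was 0.9997 by edgeR. The lowest value in any fraction was that of tef5 at labelled 20, −0.52 (SE 0.43). With the replicate number as a block, its unadjusted p was 0.00423 by edgeR (adjusted 0.428). That of eft202 at 105 was 0.0376 (adjusted 0.749), and neither was called. KO and WT cultures of a number share only that number. With the set as a term the members' median was 0.12 at steady state. It was 0.08 at 5, 0.05 at 20, 0.32 at 50, 0.36 at 105 and 0.27 at 125, with no member called. Within set A, where KO 2 is set against 2 WT cultures, the members' medians lay between 0.36 and 0.60 in the 6 fractions, and within set B, where WT 3 is set against 2 KO cultures, between −0.40 and 0.10.

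**Figure D1:**
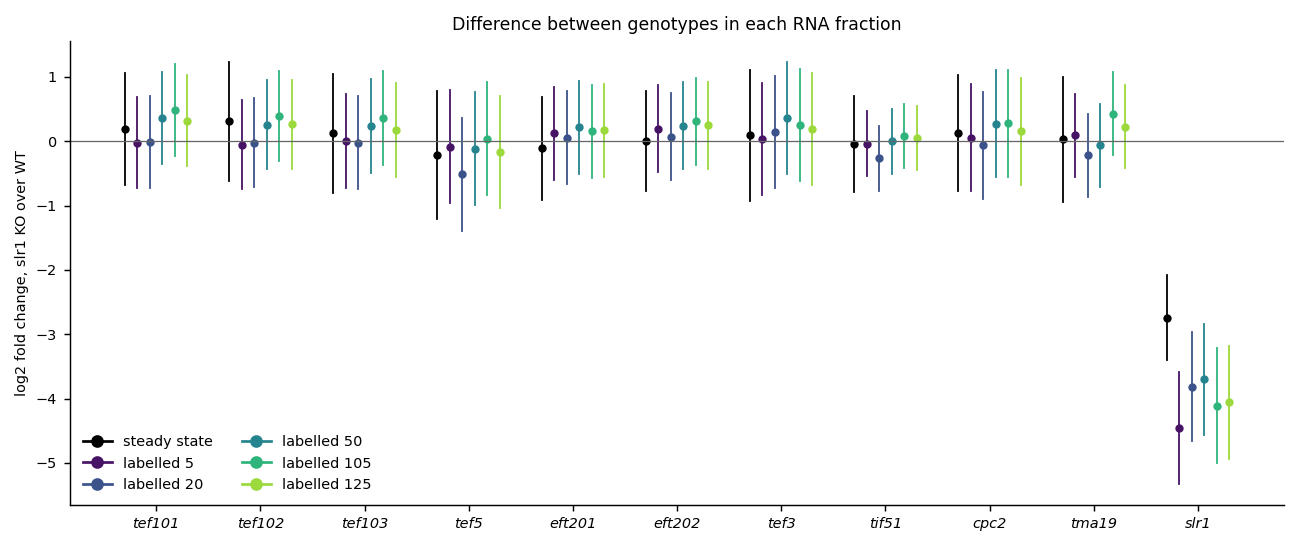
Log2 fold change of slr1 KO over WT (vertical axis) with its 95% interval from edgeR for each of the 10 mRNAs and for slr1 itself, at steady state and at the 5 labelled time points (colours). All intervals of the 10 mRNAs cross 0, while those of slr1 lie between −5.32 and −2.09.

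The summed counts of tef101, tef102 and tef103, which do not depend on how the counted reads fall between copies, gave a log2 fold change of KO over WT of 0.15 (SE 0.43) at steady state, and the sum of eft201 and eft202 gave −0.07 (SE 0.37). Neither sum was called in any of the 6 comparisons. Across the labelled time points the eEF1A sum ran from −0.02 to 0.39 and the eEF2 sum from 0.06 to 0.25.

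Within each genotype, the share of labelled RNA held by these mRNAs was higher at time point 125 than at 5. The 10 together made up 1.83 ± 0.255% of S. pombe counts at labelled 125 and 1.005 ± 0.204% at labelled 5 in KO cultures (SD, n = 3), and 1.69 ± 0.0308% and 0.993 ± 0.0577% in WT cultures. In all 6 cultures each of the 10 mRNAs was higher at 125 than at 5. How many of all genes were higher in all 6 cultures was not counted. By edgeR 5 members passed the test in KO and 5 in WT cultures, the same 5 genes: tef5, cpc2, tma19, tef101 and tef103. Over all 5823 genes tested, 6.3% were called higher at 125 in KO and 6.68% in WT cultures. The members' median log2 fold change was 1.22 in KO and 1.06 in WT cultures, against −0.08 over all genes in both.

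The eEF1B gene tef5 had the largest change of the members. It reached 1668, 2459 and 1760 CPM at labelled 125 in KO cultures 1 to 3, against 406, 748 and 414 CPM at labelled 5. In WT cultures it reached 1495, 3833 and 1449 CPM at 125, against 436, 795 and 431 CPM at 5. The time points did not overlap in either genotype, and culture 2 was the highest of each genotype at both. The log2 fold change was 1.91 (SE 0.46, adjusted p = 0.00844 by edgeR) in KO and 2.03 (SE 0.47, adjusted p = 0.00473) in WT cultures.

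The RACK1 homologue cpc2 had 1824, 2927 and 2588 CPM at 125, against 589, 1084 and 506 CPM at 5, in KO cultures. Its WT values were 1585, 3020 and 2129 CPM at 125, against 539, 899 and 647 CPM at 5. Again no library at 5 reached the lowest at 125, and the log2 fold change was 1.75 (SE 0.42) in KO and 1.69 (SE 0.42) in WT cultures. The TCTP homologue tma19 had 4310, 2719 and 5338 CPM at 125, against 1402, 1266 and 1779 CPM at 5, in KO cultures. In WT cultures it had 2919, 4258 and 3670 CPM at 125, against 1055, 1527.4 and 1592 CPM at 5. KO 2, the highest KO culture for tef5 and cpc2, was the lowest for tma19. The log2 fold change of tma19 was 1.48 (SE 0.32, adjusted p = 0.00309 by edgeR) in KO and 1.38 (SE 0.32, adjusted p = 0.00517) in WT cultures.

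Of the eEF1A genes, tef101 had 790, 1444 and 1113 CPM at 125, against 311, 518 and 306 CPM at 5, in KO cultures. Its WT values were 754, 876 and 1094 CPM at 125, against 364, 420 and 364 CPM at 5. The change was 1.56 (SE 0.37) in KO and 1.25 (SE 0.36) in WT cultures on the log2 scale. That of tef103 was 1.33 (SE 0.38) in KO and 1.18 (SE 0.38) in WT cultures, from 1499, 2838 and 2172 CPM at 125, against 672, 1248 and 675 CPM at 5, in KO and 1653, 1946 and 2263 CPM at 125, against 874, 908 and 802 CPM at 5, in WT cultures. For tef102 the values were 562, 1081 and 737 CPM at 125, against 312, 483 and 302 CPM at 5, in KO cultures, and 674, 602 and 742 CPM at 125, against 363, 411 and 362 CPM at 5, in WT cultures. The time points were apart for tef102 as well, but its log2 fold changes of 1.12 (SE 0.37, adjusted p = 0.0598 by edgeR) in KO and 0.83 (SE 0.37, adjusted p = 0.176) in WT cultures did not pass. The summed eEF1A counts gave 1.34 (SE 0.37, adjusted p = 0.0231) in KO and 1.12 (SE 0.37, adjusted p = 0.0580) in WT cultures.

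The eEF2, eEF3 and eIF5A genes had lower values than the 5 called and did not pass. The log2 fold change of 125 over 5 was 0.88 (SE 0.37) for eft201 in both genotypes, 0.72 in KO and 0.70 in WT cultures for eft202 (SE 0.34 each), and 1.05 and 0.93 for tef3 (SE 0.45 each). The lowest was that of tif51, with 0.47 in KO and 0.42 in WT cultures (SE 0.24 each, adjusted p = 0.253 and 0.308 by edgeR). Its levels were 1418, 2234 and 1846 CPM at 125, against 1039, 1744 and 1189 CPM at 5, in KO cultures, and 2219, 1762 and 1455 CPM at 125, against 1242, 1513 and 1308 CPM at 5, in WT cultures. The time points of tif51 overlapped in both genotypes.

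Because each culture was sampled at every time point, the culture can be taken as a block, and this changed the calls. With the block all 10 members passed in KO and all 10 in WT cultures, with 17.5% and 20.2% of all genes called higher. With the block tif51, the lowest, had a log2 fold change of 0.48 in KO (SE 0.15, adjusted p = 0.0108 by edgeR) and 0.41 in WT cultures (SE 0.15, adjusted p = 0.0269). Without the block the count rested on single cultures: it was 0 in KO without KO 1 or without KO 3, and in WT 3 without WT 1, 1 without WT 2 and 0 without WT 3. The count over all genes also moved: those called higher numbered 111 without KO 1 and 97 without KO 3, against 367 with all KO cultures, and 292, 246 and 171 without WT 1, WT 2 and WT 3, against 389 with all WT cultures. With the block and 1 culture left out, 9 or 10 of the 10 members were called in each case. Those fits called 698 to 1236 genes higher in all. Within set A 0 members were called in either genotype, at 1 KO culture and 2 WT cultures, and within set B 8 were called in KO and 6 in WT cultures. Over all genes, 0 of 6026 in KO and 81 in WT cultures were called higher within set A, and 720 of 5606 in KO and 339 in WT cultures within set B. A culture that stands alone for its genotype in a set is taken to vary like the others. The members' medians in sets A and B were 1.13 and 1.25 in KO, and 0.97 and 1.19 in WT cultures.

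**Figure D2:**
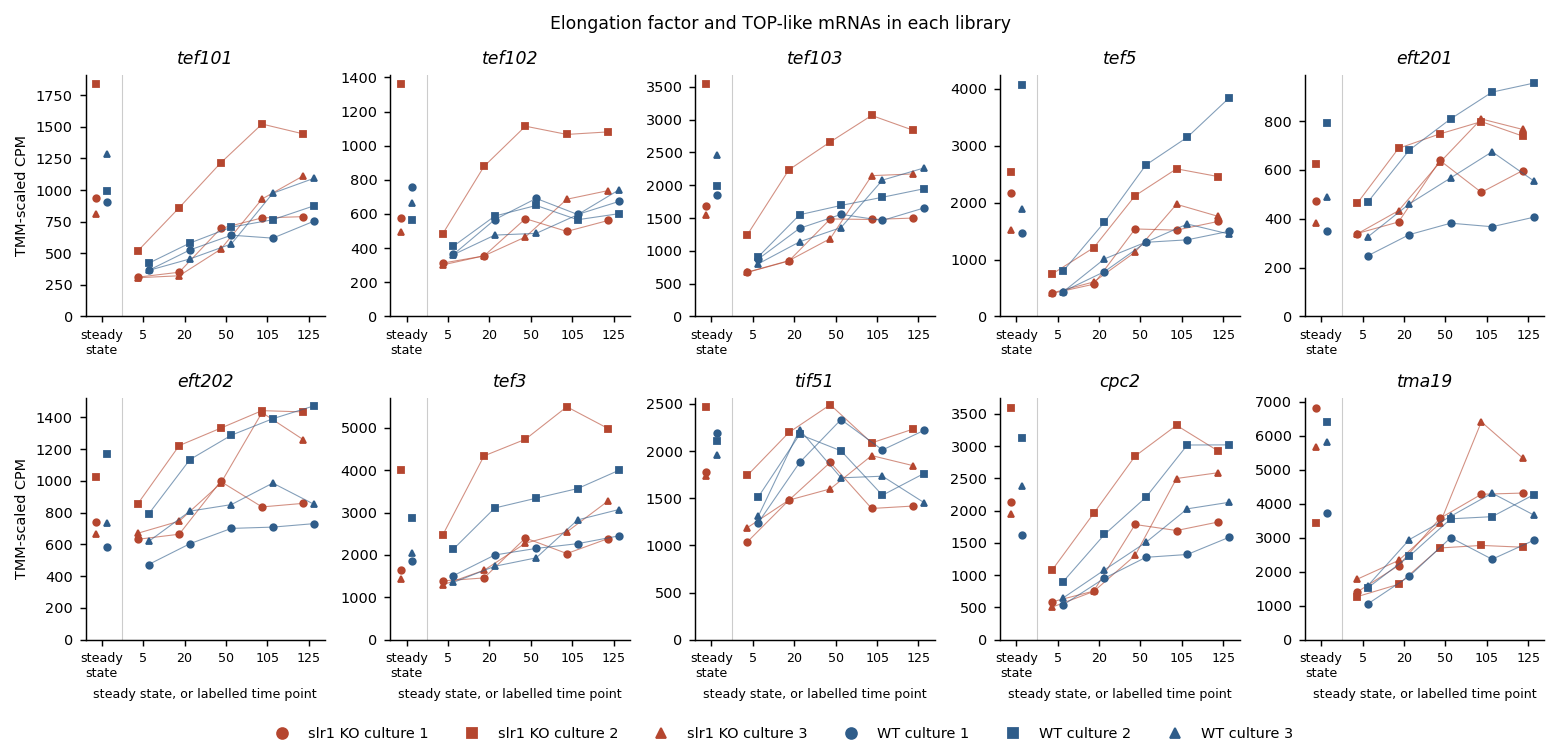
TMM-scaled CPM of each of the 10 mRNAs (vertical axes, from 0) in all 36 libraries, at steady state and at labelled time points 5 to 125 (horizontal axes, time points evenly spaced), with KO cultures left of WT cultures and lines joining the labelled libraries of 1 culture. Each mRNA is lower at 5 than at 125 in all 6 cultures, and KO 2 or WT 2 is the highest culture for most of them.

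The same mRNAs were lower in the earliest labelled RNA than in unselected RNA. At labelled 5 against steady state, edgeR called 6 members lower in KO cultures (13.2% of all genes were called lower) and 5 in WT cultures (11.2% of all genes). The largest differences were those of tef5, −1.99 (SE 0.47) in KO and −2.16 (SE 0.47) in WT cultures, tma19, −1.84 and −1.93 (SE 0.33 each), and cpc2, −1.82 and −1.77 (SE 0.42 each). In KO cultures tef5 had 406, 748 and 414 CPM at labelled 5, against 2171, 2545 and 1526 CPM at steady state. In WT cultures it had 436, 795 and 431 CPM at labelled 5, against 1473, 4068 and 1890 CPM at steady state. Next came tef101 (−1.66 in KO and −1.47 in WT cultures), tef103 (−1.38 and −1.28) and tef102 (−1.15 and −0.80), of which tef102 passed in KO cultures only; its difference between genotypes was −0.35 (SE 0.52, unadjusted p = 0.514) and was not called. The values of tif51, eft201, tef3 and eft202 lay between −0.64 and −0.17 and did not pass. With the culture as a block 9 members were called lower in KO and 10 in WT cultures, at 24.4% of all genes in each, and the member that did not pass was eft202 in KO cultures (−0.17, SE 0.13, adjusted p = 0.292 by edgeR). The WT count without the block was 2 without WT 3, where 302 genes in all were called lower, against 651 with all cultures. Within set A it was 0 in KO and 1 in WT cultures, with 0 and 240 genes called lower in all.

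**Figure D3:**
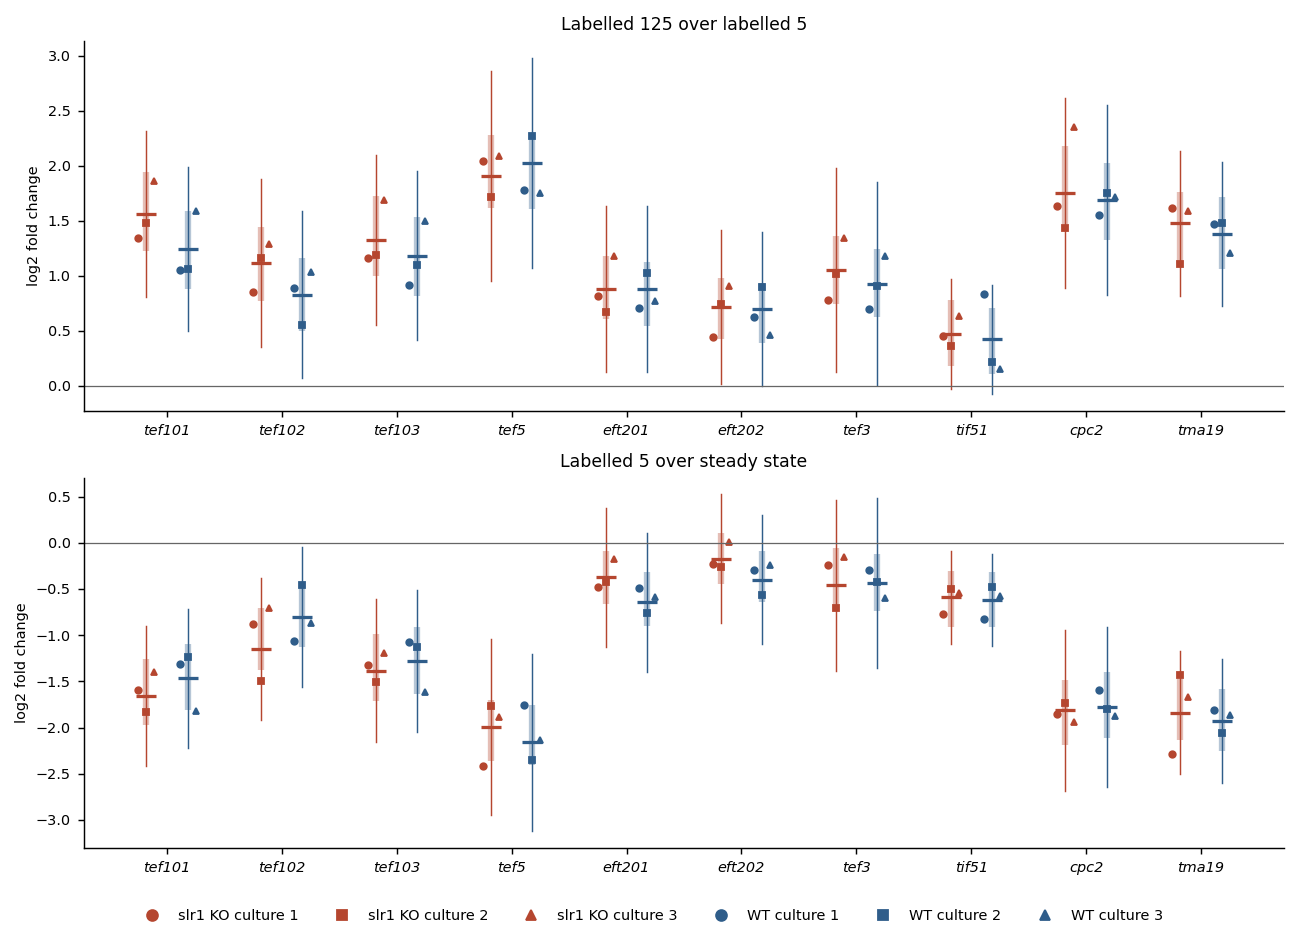
Log2 fold change of labelled 125 over labelled 5 (upper panel) and of labelled 5 over steady state (lower panel) for each of the 10 mRNAs, KO left of WT. Symbols are single cultures, the horizontal mark and thin line are the edgeR value and its 95% interval, and the pale bar is the 95% interval with the culture as a block; tef5 lies farthest from 0 in both panels, and tif51 lies nearest in the upper one, in both genotypes.

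The change with labelling did not differ detectably between the genotypes for any member. The KO change minus the WT change in labelled 125 over 5 ran from −0.12 (tef5, SE 0.64) to 0.31 (tef101, SE 0.51), and in labelled 5 over steady state from −0.35 (tef102) to 0.27 (eft201, SE 0.52). In both comparisons 0 of 5823 genes were called by edgeR (0.0%) and 0 by DESeq2, with 17 and 19 genes at an unadjusted p under 0.05 in edgeR and no member among them. The 95% intervals of the members reached from −1.42 to 1.42 for the first and from −1.41 to 1.47 for the second. With the culture as a block they were narrower, from −0.44 to 0.84 and from −0.71 to 0.64, and again all 10 held 0 in both.

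By time point 50 the members' mean levels were 73.3 to 110.3% of those at 125 in KO and 72.8 to 112% in WT cultures, and the lowest value of a single culture was 47.7% (tef101). The summed share of the 10 averaged 1.005% of S. pombe counts at 5, 1.61% at 50 and 1.835% at 125 in KO cultures. In WT cultures it averaged 0.993%, 1.51% and 1.69%. The culture with the largest rise from 5 to 125 was KO 3, with 0.882%, 1.33% and 1.85%. Taking the 10 mRNAs in the 6 cultures as 60 values, all were higher at 20 than at 5. Of these, 58 were higher at 50 than at 20, where the exceptions were tif51 in WT 2 and WT 3. At 105 against 50, and at 125 against 105, 42 of 60 values were higher. The values are not independent, because the mRNAs were measured in the same cultures. How many of all genes rose likewise was not counted. As a percentage of its own level at 125, tef5 stood at 26.1 ± 3.78% at time point 5, 39.2 ± 8.63% at 20, 80.9 ± 14.7% at 50 and 103 ± 10.8% at 105 in KO cultures (SD, n = 3). The corresponding WT values were 26.5 ± 5.03%, 55.2 ± 13.5%, 82.2 ± 11.1% and 94.8 ± 15.5%. The course of cpc2 was similar, at 29.6 ± 9.02% at 5 in KO and 31.4 ± 2.28% in WT cultures. For tma19 the values at 5 were 37.5 ± 7.88% in KO and 38.5 ± 4.25% in WT cultures.

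The course of tif51, whose product carries the modified residue hypusine and eases peptide bond formation at difficult sites, was the flattest. It stood at 71.9 ± 6.93% of its 125 level at time point 5 in KO and 77.2 ± 18.5% in WT cultures, and at 110.3 ± 23.05% and 112 ± 6.49% at time point 50. In WT 2 and WT 3 its highest labelled level was at 20, 2177 and 2229 CPM, and in KO 1, KO 2 and WT 1 it was at 50, 1881, 2492 and 2335 CPM. Against steady state, the level at 125 was higher in 6 of 6 cultures for tef3 (by 0.31 to 1.19 on the log2 scale), eft201 (0.19 to 1.004) and eft202 (0.21 to 0.92), and lower in 6 of 6 for tma19 (−0.66 to −0.08). For the other 6 members the cultures were divided.

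The counts of tef101 and tef103 rose relative to those of tef102 from labelled 5 to 125. At labelled 5 the counts of tef101 and tef102 were nearly equal, with a ratio of 0.995 to 1.07 over the 6 cultures, and at 20 it was 0.906 to 0.988. It was 0.930 to 1.22 at 50, 1.04 to 1.64 at 105 and 1.12 to 1.51 at 125, and 1.19 to 1.94 at steady state. The ratio at 125 was 1.40, 1.34 and 1.51 in KO cultures and 1.12, 1.46 and 1.47 in WT cultures, above that at labelled 5 in 6 of 6 cultures. The ratio of tef103 to tef102 was 2.45 to 3.23 at 125 and 2.15 to 2.59 at 5, and it too was higher in 6 of 6 cultures. The opposite direction held for eEF2, where eft202 over eft201 was lower at steady state (1.47 to 1.75) than at labelled 5 (1.69 to 1.98) in 6 of 6 cultures, and lower at 125 than at 5 in 5 of 6. These ratios were examined after their values had been seen and carry no test. An annotated non-coding RNA overlaps tef102 on the opposite strand and the end of the neighbouring gene SPAC23A1.09 overlaps it on the same strand, and the strand setting of the counting is unknown, so reads of these neighbours cannot be told apart from those of tef102.

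**Figure D4:**
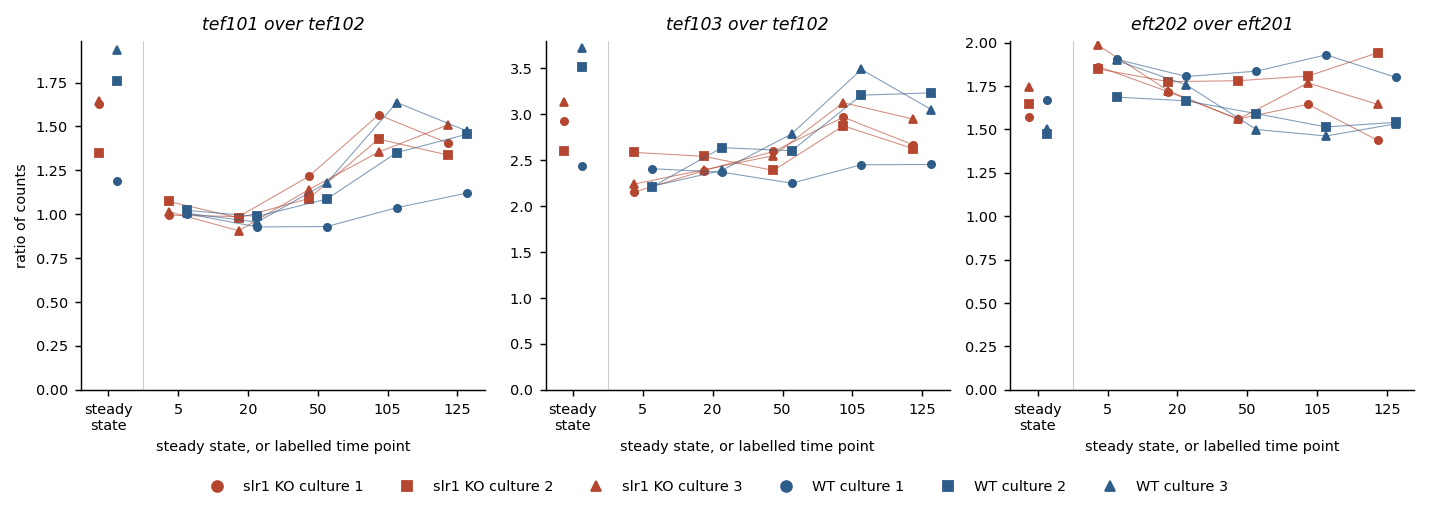
Ratio of the counts of tef101 to tef102, tef103 to tef102 and eft202 to eft201 (vertical axes, from 0) in each culture at steady state and at labelled time points 5 to 125, KO left of WT. The ratio of tef101 to tef102 lies near 1 at 5 and 20 and between 1.12 and 1.51 at 125.

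Levels were compared between genes per transcript length, for the 5 members whose stretches of 100 bases were all unique. Of these tef5, tif51 and cpc2 overlap other annotated genes. How reads in those overlaps were counted is unknown, so the levels of these genes per kilobase are less certain. At steady state tma19 held 7541 ± 2454 CPM per kilobase in KO and 7540 ± 2000 CPM per kilobase in WT cultures (SD, n = 3 each). It was followed by tef5 (2448 ± 606 in KO and 2914 ± 1639 in WT cultures), cpc2 (2397 ± 846 and 2228 ± 698), tif51 (1888 ± 390 and 1974 ± 114) and tef3 (715 ± 433 and 681 ± 162), all in CPM per kilobase. The gap between tma19 and tef5 exceeded 1 SD of either in both genotypes, and so did that between tif51 and tef3, whereas tef5, cpc2 and tif51 lay within 1 SD of the more variable of any pair. At labelled 5 the order was tma19 (2108 ± 378 CPM per kilobase in KO and 1979 ± 416.9 in WT cultures), and tif51 (1253 ± 351 and 1282 ± 134). In KO cultures cpc2 (681 ± 293), tef5 (615 ± 229.9) and tef3 (519 ± 197) followed, within 1 SD of each other. In WT cultures tef5 (652 ± 246) and cpc2 (652 ± 173) had the same mean to 3 digits, above tef3 (504 ± 126).

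The spread between cultures was wide. At steady state the highest culture exceeded the lowest by 1.42-fold (tif51) to 2.79-fold (tef3), with a median over members of 2.27-fold. KO 2 was the highest of the 6 cultures for tef101, tef102, tef103, tef3, tif51 and cpc2, and WT 2 for tef5, eft201 and eft202, whereas for tma19 KO 1 was the highest and KO 2 the lowest. KO 2 and WT 2 both belong to set A, whose remaining culture, WT 1, was the lowest for tef5, eft201, eft202 and cpc2. The tef3 mRNA had 1641, 4013 and 1440 CPM in KO cultures, against 1851, 2863 and 2044 CPM in WT cultures. Over the 36 libraries the log2 CPM of pairs of members had Pearson correlations from 0.196 (tef3 and tma19) to 0.978 (tef101 and tef103), with a median of 0.729 over 45 pairs. The libraries share cultures and time points, so these values describe and test nothing.

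Promoters of many ribosomal protein genes of fission yeast carry the HomolD box, which in that species stands in for the TATA box. Its letters CAGTCACA, searched on both strands (TGTGACTG on the other) from 250 bases before to 50 after the RefSeq transcript start (assembly ASM294v3, matched by systematic identifier), were present in 6 of the 10 members, in 62.41% of 141 cytosolic ribosomal protein genes and in 2.67% of 5123 protein-coding genes. The box began at position −44 from the start in tef101, −56 in tef102, −59 in tef103, −50 in cpc2, −51 in tma19 and −139 in tef3. HomolE (ACCCTACC, or GGTAGGGT on the other strand) was found in eft202 alone of the members, at −58, in 29.08% of the ribosomal protein genes and in 1.62% of all. The letters TATAAA or TTTATA were in 4 members, in 27.66% of the ribosomal protein genes and in 48.08% of all. The 130 bases before the start are shown for the 4 called members with a box in that stretch, HomolD in capitals, and for the members with the largest and the smallest change of labelled 125 over 5, which have none. They lie at chrIII:269517-269646 (minus strand), chrII:627523-627652 (minus strand), chrI:2439381-2439510 (plus strand), chrI:3810048-3810177 (minus strand), chrIII:1732621-1732750 (plus strand) and chrI:4142338-4142467 (minus strand), and each is written 5′ to 3′ on the gene's strand.
tef101: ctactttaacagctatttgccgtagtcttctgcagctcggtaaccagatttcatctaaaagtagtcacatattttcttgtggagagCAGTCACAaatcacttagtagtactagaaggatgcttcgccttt
tef103: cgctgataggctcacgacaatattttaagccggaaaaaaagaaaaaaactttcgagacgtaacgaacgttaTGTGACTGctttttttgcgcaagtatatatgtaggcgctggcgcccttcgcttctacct
cpc2: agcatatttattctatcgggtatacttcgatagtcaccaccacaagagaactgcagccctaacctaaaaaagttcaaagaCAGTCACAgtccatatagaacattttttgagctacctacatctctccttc
tma19: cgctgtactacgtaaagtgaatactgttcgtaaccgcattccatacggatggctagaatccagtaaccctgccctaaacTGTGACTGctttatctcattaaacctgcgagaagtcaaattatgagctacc
tef5: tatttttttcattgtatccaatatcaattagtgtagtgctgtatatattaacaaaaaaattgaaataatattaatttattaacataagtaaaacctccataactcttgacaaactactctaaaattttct
tif51: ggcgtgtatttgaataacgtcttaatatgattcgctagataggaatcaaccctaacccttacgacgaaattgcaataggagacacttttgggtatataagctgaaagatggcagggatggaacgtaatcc

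Members with the box had log2 fold changes of labelled 125 over 5 from 1.05 to 1.75 in KO and from 0.83 to 1.69 in WT cultures, and those without it from 0.47 to 1.91 and from 0.42 to 2.03. The median was 1.40 in KO and 1.21 in WT cultures with the box, and 0.80 and 0.79 without it. The 2 kinds overlapped in range: tef5 was above all carriers, tif51 and eft202 were below all in both genotypes, and eft201 was below all in KO cultures. In KO over WT at steady state the carriers lay between 0.03 and 0.31 and the others between −0.22 and −0.0001, all within the error given above. The annotated transcripts of the 10 members all begin with a purine, as do those of all but 3.94% of protein-coding genes. Among the 141 ribosomal protein genes 4.26% begin with a pyrimidine. Of the first 15 bases a median of 8.5 are pyrimidines in the members, 7 in ribosomal protein genes and 8 in all protein-coding genes. Of the 15 bases before the start a median of 10 are pyrimidines in the members and 9 in both other classes. There tef102, tef103 and cpc2 have 13, tma19 has 7 and tif51 has 6. These annotated starts need not be the starts used in these cultures.

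Another 16 factors of elongation, termination, ribosome rescue and modification of elongation factors were examined. Of these edgeR called 4 higher at labelled 125 than at 5 in KO and 2 in WT cultures, beside 6.3% and 6.68% of all genes. The gene of the eEF1B gamma subunit, SPAC29A4.02c, lay within the range of the called members, with 1.59 (SE 0.32) in KO and 1.39 (SE 0.32) in WT cultures on the log2 scale. It was followed by dph5, an enzyme of diphthamide synthesis on eEF2, with 1.12 and 1.15 (SE 0.26 each), and, called in KO cultures, by pabp, which encodes the poly(A)-binding protein (0.87, SE 0.27, against 0.69, SE 0.27, in WT cultures). The median of the 16 was 0.09 in KO and 0.33 in WT cultures. With the culture as a block 4 were called higher and 1 lower in KO, and 8 higher and 1 lower in WT cultures, beside the 17.5% and 20.2% of all genes called higher. At labelled 5 over steady state 3 of the 16 were called lower in each genotype, SPAC29A4.02c (−1.67 in KO and −1.48 in WT cultures), dph3 (−1.18 and −1.07) and dph5 (−1.11 and −1.07), while 2 in KO and 1 in WT cultures were called higher. Over all 5823 genes 13.2% in KO and 11.2% in WT cultures were called lower, and 784 and 617 genes higher. The block gave 5 lower and 4 higher of the 16 in each genotype, beside 24.4% of all genes called lower in each. With it 1725 genes in KO and 1659 in WT cultures were called higher. None of the 16 was called between KO and WT in any fraction. The smallest unadjusted p was 0.163 by edgeR, for pabp at labelled 50 (log2 fold change 0.40, SE 0.28). Of 141 cytosolic ribosomal protein genes, 112 in KO and 113 in WT cultures were called higher at 125 than at 5, with medians of 1.81 and 1.78, and 131 in each were called lower at 5 than at steady state.

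The genes whose log2 CPM over the 36 libraries was most like the mean of the members, among 4886 candidates, were SPAC29A4.02c (Pearson r = 0.983), rps901 (0.978), rps2 (0.962), rpl1602 (0.958) and rps13 (0.957), the last 4 being ribosomal protein genes. Taken singly, tef5 was most like rps1101 (0.991), tma19 like rps2802 (0.982), cpc2 like SPAC29A4.02c (0.985), tef101 like rpl1602 (0.940), and tef102 and tef103 like rps2 (0.879 and 0.943). The nearest profiles of the members with smaller changes were of other kinds: lys12 for eft201 (0.966), ade10 for eft202 (0.951), atp1, an ATP synthase subunit gene, for tef3 (0.949) and hob3 for tif51 (0.811). The libraries share cultures and time points, so no p is attached.

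Under scaling to the human counts of each library instead of TMM, the median of all genes itself moved, for labelled 125 over 5 to 0.64 in KO and 0.95 in WT cultures and for labelled 5 over steady state to 0.10 in KO and −0.61 in WT cultures. Relative to that median the members' median was 1.35 in KO and 1.11 in WT cultures for the first, beside 1.30 and 1.14 with TMM, and −1.20 and −1.10 for the second, beside −1.30 and −1.10 with TMM. Each member kept its direction in both comparisons and both genotypes under this scaling. For KO over WT the same scaling moved the median of all genes to −0.29 at steady state and 0.46 at labelled 5, and called 0 members in all 6 fractions.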

How the data were processed

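RNA of slr1 KO and WT S. pombe was sequenced as 30 labelled and 6 steady-state libraries in 12 groups of 3. The deposited values are raw read counts per gene with no normalization by the authors, as their whole numbers and unequal totals show; per the submitters' processing notes the reads passed through HTSeq 0.6.1p2, STAR 2.5.2a, Trimmomatic 0.36 and R 3.5.2, with roles not stated there. The genome build, the annotation and the strand setting are not stated in the labels. Lines for unassigned reads (10.4 to 56.6% of a library) and for human and fly genes stayed out of library sizes and tests.

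Tests on the counts used edgeR 4.0.16 (R 4.3.3, quasi-likelihood F test, TMM, filterByExpr with a minimum count of 10, Benjamini-Hochberg over all genes tested, threshold 0.05). The procedure had been checked on simulated data of independent libraries. These held no culture effect, so the check does not cover repeated libraries of a culture. KO was compared with WT at steady state in 6 libraries and per time point in a fit of 30, and time points within a genotype in a fit of 36, each with 1 mean per group; intervals are 95%. Log2 CPM for correlations used a prior count of 2. Alternatives were DESeq2 1.42.0, no filter, blocks, human-count scaling, sets of cultures, left-out cultures and summed copies. Repeated samples of 1 culture are paired by design: their deviations from the group means correlated at 0.357 to 0.809. All 10 genes are named, with slr1 as a check; of the 16 companion factors, up to 3 called genes with the largest change or 2 with the smallest p per comparison were eligible; of ribosomal protein genes only counts and medians are given; profiles most alike were taken by Pearson r. The genes and lists were chosen with earlier results of these data known. Symbols and sequences are from RefSeq, assembly ASM294v3, which matched 6846 of 7268 identifiers. Cultures grew from single colonies of 1 strain per genotype. The steady-state fit of 6 libraries has 1 library per culture, so its p-values reflect the spread between cultures. Fits of 30 and 36 libraries without a block treat the repeated libraries of a culture as independent. With the culture as a block, p-values reflect the spread within cultures.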

Additional observations from a re-analysis of the deposited data

How the results depend on the processing

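No alternative called a member between KO and WT, in any fraction or in the difference between genotypes, with every left-out culture included. With the culture as a replicate block, the members called rose to 10 in KO and 10 in WT cultures for labelled 125 over 5 and to 10 in WT cultures for labelled 5 over steady state; human-count scaling gave 9 in KO and 10 in WT cultures for the first, when 465 and 1383 of 5823 genes were called higher and 0 lower, and 4 in KO and 9 in WT cultures for the second, when 207 and 626 were called lower. Within set A the counts were 0 and 0 for 125 over 5, and 0 in KO and 1 in WT cultures for 5 over steady state; within set B the KO count for 125 over 5 was 8. Summed copies, which leave 7 entries, gave 3 in WT cultures for 125 over 5, when 387 of 5820 genes were called higher. With 1 culture left out, with or without the block, the counts for 125 over 5 ran from 0 to 10 in each genotype. For 5 over steady state they ran from 4 to 9 in KO and from 2 to 10 in WT cultures. Over all genes those fits called 97 to 1236 higher for the first and 302 to 1488 lower for the second. The block with a culture left out was chosen after seeing the data and gave 9 or 10, and 7 to 10. With it 698 to 1236 genes were called higher and 1091 to 1488 lower. The KO and WT cultures with the same number share only that number: correlations of their deviations ran from −0.531 to 0.612, and a replicate block by number called 0 members. Of 120 values of single members 21 were called; none of these changed sign and all 21 lost the call under at least 1 alternative, while 70 of the 99 not called changed sign. Each member had at least 353 counts in each library, so counting error is small beside the spread between cultures, and the number of cultures limits what could be resolved.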
